A study of Mus musculus with 6 samples.

Results

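The microRNAs described here form 2 small families with related seeds. The mmu-miR-130a, mmu-miR-130b and mmu-miR-301 probes stand for the miR-130 family, and the mmu-miR-148a, mmu-miR-148b and mmu-miR-152 probes for the miR-148 and miR-152 family. They were chosen by name, as the probes that carry one of these 6 mouse microRNA names in the array's annotation, and all 6 were found among 334 mouse microRNA probes. All 6 also passed the filter on dim probes and are among the 294 probes tested. MicroRNAs were profiled in embryoid bodies, which are clumps of differentiating mouse embryonic stem cells, and the cells carried human BRCA1. The WT group carried wild-type human BRCA1, the MI group human BRCA1 with the missense change M1652I and the RQ group human BRCA1 with R1699Q. Both changes lie in the BRCT repeats at the C-terminal end of BRCA1, a protein of DNA repair and gene regulation. All groups shared the strain 129S7/SvEv Brd-Hprt b-m2 and collection on day 7, feeder cells having been removed before the aggregates were formed. The labels name no drug or other agent, and each group had 2 arrays labelled as biological replicates. The sources used here do not give how many clones a group came from, or the state of the mouse Brca1 gene. Nothing in the labels says that the replicates were separate cultures, so the p-values cover only how these arrays vary, and that variation may be technical.

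A microRNA guides the Argonaute proteins to messenger RNAs that pair with its seed, the bases near its 5′ end, and lowers their translation or stability. The miR-130 family is known from studies of blood vessels and growth signalling, and miR-130a in particular from endothelial cells. The miR-148 and miR-152 family is known for targeting messenger RNAs of DNA methyltransferases, and miR-148a is abundant in liver. Both families are present in many tissues and are not markers of 1 cell type.

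The mature sequences are shown because they define the families. They are from RefSeq (GRCm38.p6), 5′ to 3′, with the seed, bases 2 to 8, in capitals. All 6 members were matched, each to the 3p strand of its hairpin, and the array's miR-301 is RefSeq's miR-301a.
miR-130a: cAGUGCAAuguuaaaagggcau
miR-130b: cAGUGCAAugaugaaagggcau
miR-301: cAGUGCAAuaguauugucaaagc
miR-148a: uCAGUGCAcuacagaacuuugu
miR-148b: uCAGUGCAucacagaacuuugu
miR-152: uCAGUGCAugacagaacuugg
The miR-130 family shares the seed AGUGCAA and the miR-148 and miR-152 family the seed CAGUGCA. The letters of the second seed also open the miR-130 sequences, shifted by 1 base, so the families differ in the register of a common stretch. Of 241 array microRNAs matched to a mature sequence, 7 hold CAGUGCA within their first 8 bases, namely the 6 members and miR-721.

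The hairpins lie at separate loci in GRCm38.p6. Mir130a is at chr2:84741115-84741178 on the minus strand and lies within no other annotated gene. Mir130b, at chr16:17124061-17124142 on the minus strand, lies within the interval of 2610318N02Rik, and Mir301b is the other microRNA within 5000 bases of it. Mir301, at chr11:87113004-87113089 on the plus strand, lies within Ska2, a gene of the mitotic spindle. Mir148a, at chr6:51269812-51269910 on the minus strand, lies within the interval of Gm38821. Mir148b, at chr15:103285125-103285221 on the plus strand, lies within Copz1, and Mir152, at chr11:96850393-96850465 on the plus strand, within Copz2. Copz1 and Copz2 encode paralogous subunits of the COPI vesicle coat, so these related microRNAs sit in related host genes. Exon or intron positions were not used here.

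The probes of close relatives are shown because their signals may not be fully separate. Each line is the part of the probe taken as complementary to the microRNA, with capitals where the probes compared differ. The first base of the miR-152 part lies beyond its 21-base sequence above and counts among its differing bases. For miR-301b no mature sequence was matched, so its part was not checked against one.
miR-148a: AcAaagttctgtAGtgcactga
miR-148b: AcAaagttctgtGAtgcactga
miR-152: CcCaagttctgtCAtgcactga
miR-130a: atgccctttTaAcattgcactg
miR-130b: atgccctttCaTcattgcactg
miR-301: gctttgacaatacTattgcactg
miR-301b: tgctttgacaatacCattgcactg
The miR-148a and miR-148b probes differ at 2 of 22 bases, miR-148b and miR-152 at 3, and miR-148a and miR-152 at 4. The miR-130a and miR-130b probes differ at 2 of 22 bases, and those of miR-301 and miR-301b at 1 of 23. How much signal each probe takes from its relatives was not tested.

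Each array had 2 colours. Cy3 carried the RNA of the group and Cy5 a common reference, labelled as wild-type embryoid bodies, and values are log2 ratios of Cy3 over Cy5 after loess normalization unless another scale is named. The net Cy3 signal (spot mean minus local background) of the median tested probe was 169 to 260 over the 6 arrays, and that of negative control spots was 43.8 to 59.4 on the WT and MI arrays and 93 and 102.8 on the RQ arrays. Of stem cell markers, 7 of 7 on the array were well above background in Cy3 on both WT arrays and 2 of 7 in Cy5, while 4 of 4 blood markers were so in Cy5 and 2 of 4 in Cy3. The array's endothelial marker did not rise well above background in the Cy3 channel of WT. Of markers of other cell types, summed in net Cy3, 3 muscle and heart markers summed to 1160 to 1180 in WT, 1918 to 2744 in MI and 2340 to 3246 in RQ, 2 neural markers to 759 to 783, 734 to 871 and 1203 to 1291, and the liver marker was at 297 to 311, 301.2 to 361 and 552 to 567. The 4 blood markers summed to 876 to 934, 877 to 989 and 979 to 1039, the endothelial marker was at 37.9 to 54.3, 46.5 to 48.3 and 61.3 to 72.7, and the 7 stem cell markers overlapped between groups, at 46098 to 81761, 45578 to 58697 and 61952 to 64737. These signals are not corrected for the negative control spots, which were brighter on the RQ arrays. There the endothelial marker lay below the mean of those spots, as it did on WT replicate 1 and MI replicate 2, where that mean was 59.4. The part of the markers' cell types in the changes given here was not tested. On the WT arrays the channels held unlike RNA by the stem cell and blood markers although the labels name the same material, so ratios are compared between groups and not read as levels against wild type. Both WT arrays filled one row of the slide and the mutant arrays the other, so in comparisons with WT the genotype and the slide row cannot be told apart, while MI and RQ shared a row. The number of arrays limits the precision. In bulk samples, fewer cells of a type and less RNA per cell cannot be told apart.

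With loess, 3 of the 6 members fell in RQ against WT (miR-130a, miR-130b and miR-148b), 2 fell in MI against WT (miR-130a and miR-130b) and 2 were lower in RQ than in MI (miR-148b and miR-152). No member rose in any of the 3 comparisons in this fit. A call is an adjusted p under 0.05 in limma, with Benjamini-Hochberg adjustment over 294 probes. Of all tested microRNAs, 13.9% were called lower in RQ minus WT, 6.46% in MI minus WT and 7.82% in RQ minus MI, and 21.4%, 15.6% and 10.9% were called in either direction. Called higher were 7.48%, 9.18% and 3.06%. The members' median change was -0.80 in RQ minus WT, -0.32 in MI minus WT and -0.36 in RQ minus MI, beside medians of 0.03, 0.11 and -0.10 over all tested probes. With median centring the members' medians were -0.35, -0.17 and -0.06, beside 0.10, 0.08 and 0.06. Comparisons with WT share the WT arrays. With 2 arrays per group, groups that do not overlap say little on their own. The miR-301b probe, for one, did not overlap between MI and WT at a change of -0.07. The share of all tested probes without overlap was not counted. The miR-148b and miR-152 calls kept their direction under the other scalings, and the miR-130a and miR-130b changes in RQ did not, as described for each.

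**Figure D1:**
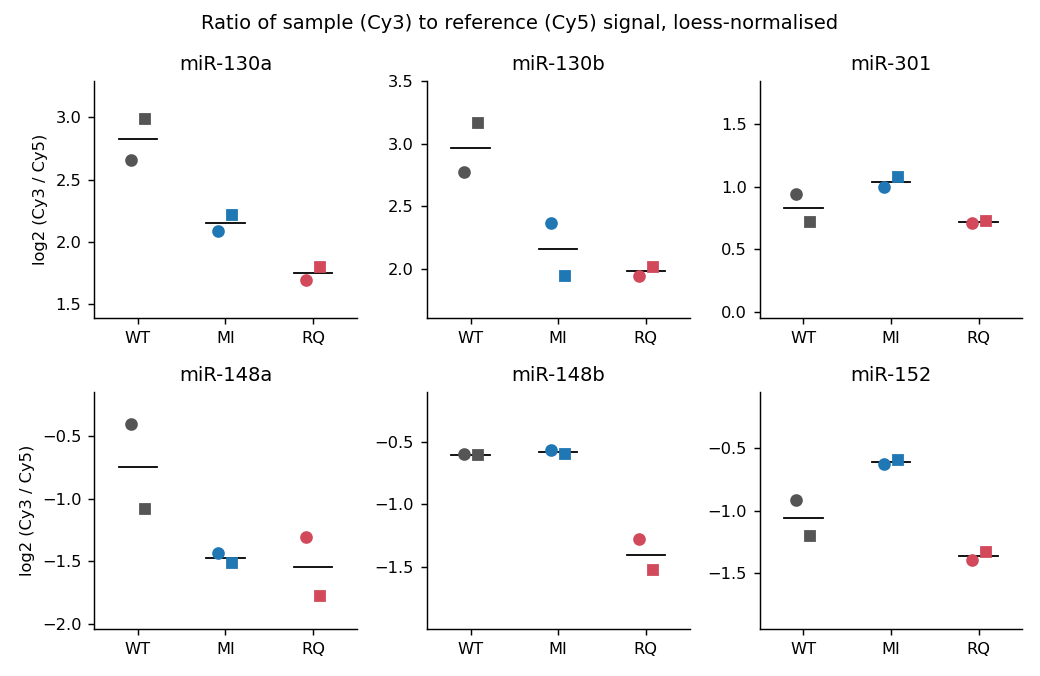
Loess-normalised log2 ratio of Cy3 over Cy5 (vertical axes, all spanning the same range of log2 units but starting at different values) for the 6 microRNAs in the WT, MI and RQ groups, with circles for replicate 1, squares for replicate 2 and lines for group means. miR-148b was near -0.6 on the 4 WT and MI arrays and at -1.28 and -1.53 on the RQ arrays, and miR-130a and miR-130b were highest on the WT arrays.

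miR-148b was lower in RQ than in both other groups. Its log2 ratio was -0.60 and -0.61 on the WT arrays, -0.57 and -0.60 on the MI arrays and -1.28 and -1.53 on the RQ arrays. Both RQ arrays lay below all 4 others, and the WT and MI arrays overlapped. RQ minus WT was -0.80 ± 0.12 (log2, SE, n = 2 arrays per group; limma adjusted p = 0.0099) and RQ minus MI was -0.82 ± 0.12 (adjusted p = 0.0207), a ratio 1.74-fold and 1.77-fold lower. MI minus WT was 0.02 with a 95% interval from -0.28 to 0.32 (adjusted p = 0.92).

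The fall of miR-148b was seen in the Cy3 signal itself. The net Cy3 signal was 293 and 206 on the WT arrays, 168 and 176 on the MI arrays and 124 and 118 on the RQ arrays. On this signal both MI arrays also lay below both WT arrays, unlike with loess. The RQ values were the lowest although the median tested probe was not dimmer on the RQ arrays, at 260 and 231 against 169 to 243 on the others. Above the mean of each array's negative control spots, the signal was 234 and 162 in WT, 124 and 117 in MI and 31 and 15 in RQ, so little of the RQ signal lay above the control spots, although the scanner software marked every RQ spot as well above background. The Cy5 reference signal of the probe was also somewhat lower on the RQ arrays, at 211 on both, against 233 to 309 on the other 4. The part of the raised control spots in the result was not tested.

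Other scalings gave larger falls of miR-148b in RQ minus WT, and each was called. The change was -0.96 with median centring of each array in place of loess (limma adjusted p = 0.000927), -1.39 with the Cy3 channel alone (adjusted p = 0.00273) and -2.37 with the scanner software's processed signals (adjusted p = 0.0027). These scalings called 6.8%, 23.1% and 12.9% of all tested microRNAs lower in RQ minus WT. In RQ minus MI they gave -0.65, -1.10 and -1.62 for miR-148b, each called as well, beside 4.08%, 12.2% and 5.44% of all tested microRNAs called lower. Without background correction the changes were smaller, at -0.61 in RQ minus WT and -0.71 in RQ minus MI. With a normexp offset of 10 they were -1.40 and -1.13. The size thus varied with the treatment of background, and the folds given above with loess are not settled sizes. Against WT the call was lost without RQ replicate 1, at -0.93 (adjusted p = 0.0503). Against MI it was lost without any 1 of the MI or RQ arrays, at -0.94 to -0.70, with adjusted p of 0.0649 to 0.12. In MI minus WT the sign was not settled, with 0.02 by loess and -0.31, -0.29 and -0.75 under the same 3 scalings, none of them called.

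**Figure D2:**
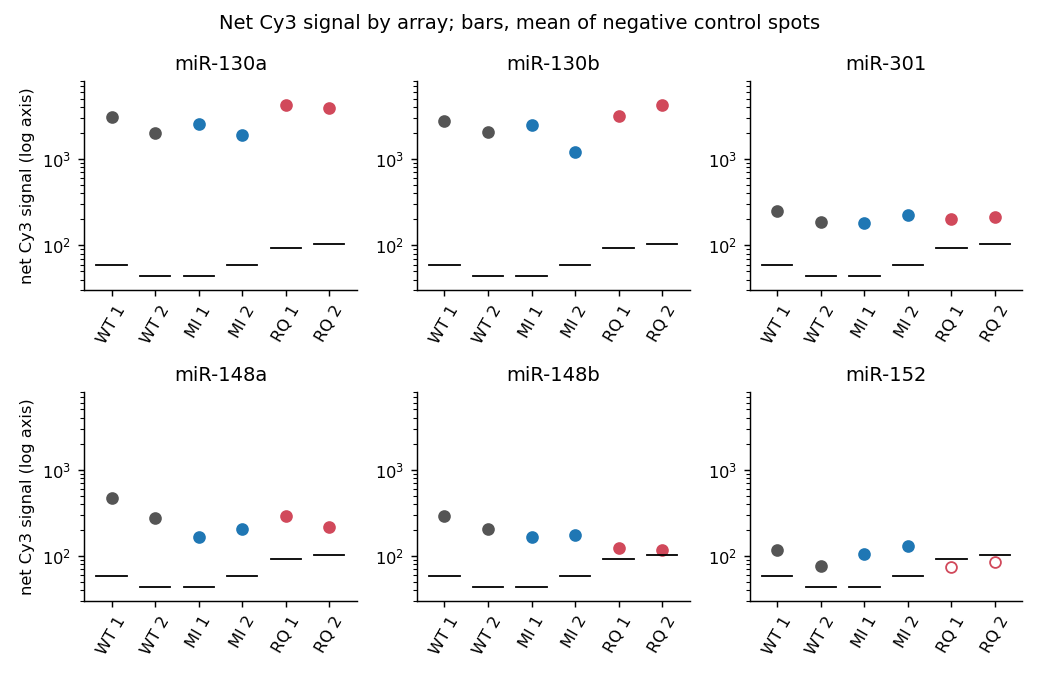
Net Cy3 signal (vertical axes, log scale) of the 6 microRNAs on each of the 6 arrays, filled where most spots were well above background and open where not, with bars at the mean net Cy3 signal of the array's negative control spots. On the RQ arrays miR-148b lay just above these bars (124 and 118 against 93 and 102.8) and miR-152 below them, while miR-130a and miR-130b lay far above them on all arrays.

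miR-152, the relative in Copz2, was highest in MI and lowest in RQ. Its log2 ratio was -0.92 and -1.20 on the WT arrays, -0.63 and -0.60 on the MI arrays and -1.40 and -1.33 on the RQ arrays, so the 3 groups did not overlap. RQ was lower than MI by 0.75 ± 0.13 (log2, SE, n = 2 arrays per group; limma adjusted p = 0.0305). Against WT, RQ was at -0.31 (adjusted p = 0.145) and MI at 0.44 (adjusted p = 0.0734), neither called with loess, so WT could not be placed apart from either neighbour in that order.

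The miR-152 probe was dim in Cy3. Its net Cy3 signal was 118 and 76.7 on the WT arrays, 106 and 131 on the MI arrays, and 75.5 and 84.3 on the RQ arrays. Neither RQ array had it well above background, and relative to the mean of the negative control spots it lay at -17.5 and -18.5. WT replicate 2 lay between the RQ arrays on this unscaled signal. Only an approximate bound on its Cy3 signal in RQ can be given. On the normalised Cy3 scale it came to 2.09-fold lower in RQ than in MI and 1.6-fold lower than in WT. These bounds set the brighter group's mean log2 Cy3 signal (7.28 in MI, 6.89 in WT) against the lowest Cy3 signal of any probe well above background, or the probe's own where that was higher (6.21 in RQ, where 6.16 was measured), after loess and Aquantile normalization. They depend on that normalization, leave out Cy5 and are open to dye bias, since no dyes were swapped. On RQ replicate 1 the probe's own signal (6.12) lay above that lowest signal (6.09) without being well above background. The bounds are thus not firm lower limits.

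With median centring, Cy3 alone and processed signals miR-152 was called lower in RQ against both other groups. The sizes of these differences, like those given above with loess, rest on RQ signals not well above background and are not measured folds. In RQ minus MI limma's adjusted p was 0.0161 with median centring, 0.00766 by Cy3 alone and 0.00535 by processed signals. In RQ minus WT it was 0.0364, 0.0147 and 0.00649 in the same order. Against WT miR-152 was called in 4 of the 11 alternatives other than leaving out arrays. They were these scalings and a normexp offset of 10 (adjusted p = 0.0385). It was not called without background correction (adjusted p = 0.303) or with only RQ and WT fitted (adjusted p = 0.223). In RQ minus MI the call was lost without background correction (adjusted p = 0.0616) and without any 1 of the MI or RQ arrays (adjusted p of 0.0969 to 0.166). In MI minus WT, where both groups were above background, miR-152 was called higher with a normexp offset of 10 (0.64, adjusted p = 0.0304) and without WT replicate 1 (0.59, adjusted p = 0.0479).

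miR-148a, the member best known from liver, had lower ratios in both mutants than in WT, but neither difference passed after adjustment over all tested probes. Its log2 ratio was -0.40 and -1.08 on the WT arrays, -1.43 and -1.51 on the MI arrays and -1.31 and -1.78 on the RQ arrays. The WT arrays lay above all others but stood far apart from each other. MI minus WT was -0.73 ± 0.26 (log2, SE, n = 2 arrays in each group; limma adjusted p = 0.103), with a 95% interval from -1.37 to -0.09. RQ differed from WT by -0.80 ± 0.26 (adjusted p = 0.0798), with an interval from -1.44 to -0.16. RQ and MI overlapped, with a difference of -0.07 and a 95% interval from -0.71 to 0.57.

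Its net Cy3 signal was 471 and 275 on the WT arrays, 164 and 205 on the MI arrays and 288 and 218 on the RQ arrays, so RQ replicate 1 exceeded WT replicate 2. The spots of RQ replicate 1 ranged from 218 to 391. Called changes appeared with Cy3 alone, at -0.95 in MI minus WT (limma adjusted p = 0.0306) and -1.15 in RQ minus WT (adjusted p = 0.0156), and without WT replicate 2, at -1.07 (adjusted p = 0.0309) and -1.14 (adjusted p = 0.0275). Cy3 alone called 7.82% of all tested microRNAs lower in MI minus WT. With a normexp offset of 10 it was called too (-0.98, adjusted p = 0.0249, and -0.91, adjusted p = 0.0271). With median centring the changes of miR-148a were -0.61 and -0.42, and with the processed signals -1.25 and -1.27, none called. Without RQ replicate 1 or 2 the RQ minus WT change was -1.04 or -0.56. The direction against WT was negative under each of these settings, while the size varied.

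miR-130a and miR-130b were the brightest members and moved together. The log2 ratio of miR-130a was 2.66 and 2.98 on the WT arrays, 2.09 and 2.22 on the MI arrays and 1.70 and 1.80 on the RQ arrays, with no overlap between any 2 groups. That of miR-130b was 2.77 and 3.16 in WT, 2.37 and 1.94 in MI, and 1.94 and 2.01 in RQ, where MI and RQ overlapped. Across the 6 arrays the ratios of the pair correlated at r = 0.917 (Pearson), a description that rests on shared arrays and on probes of closely related sequence.

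With loess both fell in both mutants. In RQ minus WT the change was -1.07 ± 0.14 for miR-130a (log2, SE, n = 2 arrays per group; limma adjusted p = 0.00808) and -0.99 ± 0.20 for miR-130b (adjusted p = 0.0184). In MI minus WT it was -0.67 ± 0.14 (adjusted p = 0.034) and -0.81 ± 0.20 (adjusted p = 0.0424). RQ minus MI was -0.40 for miR-130a (adjusted p = 0.14) and -0.18 for miR-130b (adjusted p = 0.584), neither called.

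These falls were not seen in the unscaled Cy3 signal of RQ. The net Cy3 signal of miR-130a was 3075 and 1979 on the WT arrays, 2534 and 1876 on the MI arrays, and 4181 and 3926 on the RQ arrays, where it was highest. That of miR-130b was 2727 and 2052 in WT, 2477 and 1199 in MI, and 3130 and 4256 in RQ, again highest in RQ. The Cy5 signal of miR-130a ran from 719 to 983 over the 6 arrays, with both RQ arrays at 983 and 981. That of miR-130b ranged more widely, from 392 on MI replicate 2 to 909 on RQ replicate 2.

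**Figure D3:**
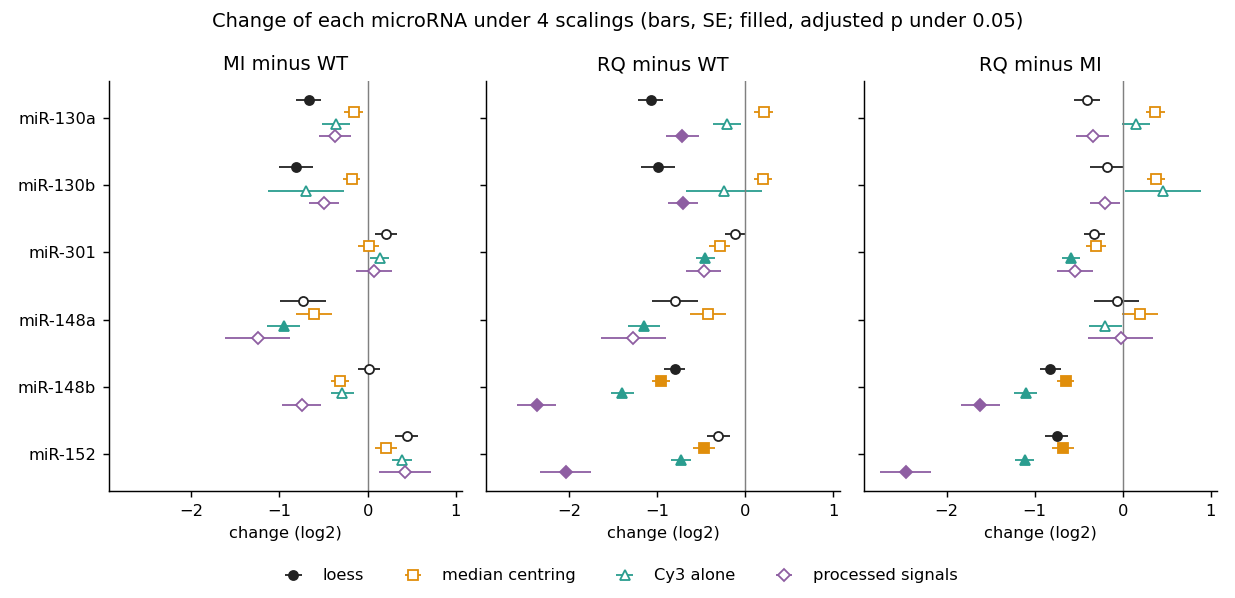
Change (log2, horizontal axes) of each microRNA in the 3 comparisons under 4 scalings, with bars for the SE and filled symbols where limma's adjusted p was under 0.05. In RQ minus WT, miR-130a and miR-130b lay near -1 with loess and at 0.21 and 0.20 with median centring, while miR-148b was negative and called under all 4 scalings in RQ minus WT and RQ minus MI.

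The direction of the change of miR-130a and miR-130b in RQ thus depended on the scaling. By median centring miR-130a was at 0.21 in RQ minus WT (limma adjusted p = 0.2), by Cy3 alone at -0.20 (adjusted p = 0.352) and by processed signals at -0.71 (adjusted p = 0.0441). miR-130b was at 0.20 (adjusted p = 0.206), -0.24 (adjusted p = 0.672) and -0.70 (adjusted p = 0.0349) in the same order. The median over all tested probes under these scalings was 0.10, -0.19 and -0.26, so with Cy3 alone both members lay at about the median probe. In MI minus WT the sign was negative under each scaling, with -0.16, -0.36 and -0.37 for miR-130a and -0.18, -0.70 and -0.50 for miR-130b, none called. Median centring and the processed signals called 7.14% and 7.82% of all tested microRNAs lower there.

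The miR-130a and miR-130b calls also depended on single arrays. In RQ minus WT miR-130a was not called without RQ replicate 1 (-1.02, limma adjusted p = 0.0624), and miR-130b was not called without WT replicate 2 (-0.79), RQ replicate 1 (-0.96) or RQ replicate 2 (-1.03). In MI minus WT each was called without WT replicate 1 and not called without any 1 of the other 5 arrays. Without each of these 5 in turn the change of miR-130a was -0.73 to -0.51 and that of miR-130b -1.02 to -0.60.

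**Figure D4:**
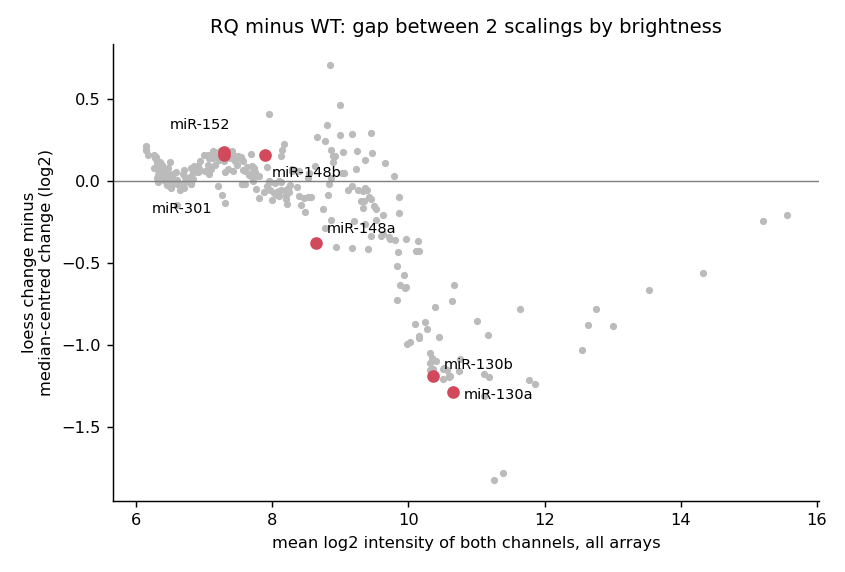
Loess change minus median-centred change in RQ minus WT (log2, vertical axis) against the mean log2 intensity over both channels and all arrays (horizontal axis) for the 294 tested probes in grey, with the 6 members in red. miR-130a (-1.28) and miR-130b (-1.19) lie among bright probes with a large gap, and miR-301, miR-148b and miR-152 lie between 0.16 and 0.18.

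Loess and median centring differed most for miR-130a and miR-130b among the 6 members. miR-130a and miR-130b were at the 92.9 and 88.4 percentile of mean intensity among tested probes, and in RQ minus WT their loess change minus their median-centred change was -1.28 and -1.19. For miR-148a, at the 61.2 percentile, the difference was -0.38. For miR-148b, miR-301 and miR-152, at percentiles 47.3, 31.6 and 31, it was 0.16, 0.18 and 0.16. These differences set loess against median centring alone. The processed signals moved the dim miR-148b and miR-152 further, to -2.37 and -2.04 in RQ minus WT. Over all tested probes, 22 were called higher and 41 lower in RQ minus WT with loess, against 47 and 20 with median centring.

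miR-301, the third member of the miR-130 family, differed little between groups. Its log2 ratio was 0.94 and 0.72 on the WT arrays, 1.00 and 1.08 on the MI arrays and 0.71 and 0.73 on the RQ arrays. MI lay above both other groups, and RQ overlapped WT. The change was 0.21 in MI minus WT with a 95% interval from -0.09 to 0.51 (limma adjusted p = 0.248), -0.11 in RQ minus WT from -0.41 to 0.19 (adjusted p = 0.536), and -0.32 in RQ minus MI from -0.62 to -0.02 (adjusted p = 0.16). With Cy3 alone, which moved the median of all probes by -0.19 and -0.22, it was called lower in RQ minus WT (-0.45, adjusted p = 0.0283) and RQ minus MI (-0.59, adjusted p = 0.0268).

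The net Cy3 signal of miR-301 was 252 and 185 in WT, 184 and 227 in MI and 204 and 212 in RQ, so all mutant arrays lay at or below WT replicate 1 and near or above WT replicate 2. Unlike miR-130a and miR-130b, it was not brighter on the RQ arrays. Across the 6 arrays its ratio correlated with that of miR-130a at r = 0.104 and with that of miR-130b at r = -0.15, against -0.661 and -0.76 with median centring, so miR-301 did not follow the other two. In the miR-148 and miR-152 family r was 0.767 between miR-148b and miR-152, 0.514 between miR-148a and miR-148b, and 0.0749 between miR-148a and miR-152.

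miR-301b, the neighbour of miR-130b in the genome, changed little with loess. It had no matched mature sequence, so the rule on related seeds did not name it, and it is shown for its position. Its probe is complementary to the AGUGCAA seed and differs from that of miR-301 at 1 of 23 bases. Its log2 ratio was 1.14 and 1.02 on the WT arrays, 1.00 and 1.01 on the MI arrays and 0.86 and 0.77 on the RQ arrays. RQ minus WT was -0.26 (limma adjusted p = 0.138) with loess, and was called by median centring (-0.42, adjusted p = 0.024) and by Cy3 alone (-0.50, adjusted p = 0.0179). The MI difference from WT was -0.07 (adjusted p = 0.634).

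miR-721, the other microRNA matched to a mature sequence with the seed AGUGCAA, had higher ratios in both mutants with loess, without a call when all arrays were fitted together. Its sequence is shown to set it beside the miR-130 family, with the seed in capitals.
miR-721: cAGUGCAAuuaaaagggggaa
Its log2 ratio was 1.18 and 1.12 on the WT arrays, 2.37 and 1.48 on the MI arrays and 1.97 and 1.88 on the RQ arrays. All 4 mutant arrays lay above both WT arrays, and MI and RQ overlapped. The difference from WT was 0.77 ± 0.28 in both mutants (log2, SE; n = 2 arrays in each group; limma adjusted p = 0.106 in MI and 0.0948 in RQ). With median centring it was 0.16 in MI and 0.31 in RQ, and with the processed signals 0.08 and -0.15. With Cy3 alone it was 0.74 in MI (limma adjusted p = 0.326) and 1.37 in RQ (adjusted p = 0.0785), neither called. In MI it was 0.33 without MI replicate 1 and 1.22, called, without MI replicate 2 (adjusted p = 0.0274). In RQ it was called when only RQ and WT were fitted (adjusted p = 0.0189). The scanner software marked 2 of its 4 spots as outliers on WT replicate 1, MI replicate 1 and RQ replicate 1, and 1 spot on MI replicate 2 and RQ replicate 2.

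The miR-29 family, also known for targeting DNA methyltransferases, was compared with the miR-148 and miR-152 family. Of its 3 members, miR-29a fell in RQ minus WT with loess (-1.21 ± 0.24, limma adjusted p = 0.0197), and miR-29b (-0.81) and miR-29c (-0.12) did not pass. None of the 3 passed in MI minus WT or RQ minus MI with loess. Averaged over both channels, miR-29a and miR-29b are as bright as miR-130a and miR-130b, at the 93.9 and 96.6 percentile. In Cy3 they were dimmer, with group means of net signal of 426 to 705 and 1012 to 1374. Those of miR-130a and miR-130b were 2205 to 4053 and 1838 to 3693. With median centring the RQ minus WT changes of miR-29a and miR-29b were -0.12 (adjusted p = 0.373) and -0.02 (adjusted p = 0.931). With Cy3 alone both were called lower in RQ minus WT, each at -0.95 (adjusted p = 0.0163). In MI minus WT miR-29a, at -0.72 with loess, was called by median centring (-0.48, adjusted p = 0.0179) and by Cy3 alone (-0.73, adjusted p = 0.0481). The loess call of miR-29a in RQ minus WT was lost without WT replicate 2 (-0.96), RQ replicate 1 (-1.08) or RQ replicate 2 (-1.34).

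The microRNAs whose ratios followed each family most closely across the 6 arrays were named by their Pearson correlation with the family's mean among 291 other tested probes. For the miR-130 family they were miR-23a (r = 0.981), miR-299 (r = 0.961) and miR-23b (r = 0.96). For the miR-148 and miR-152 family they were miR-301b (r = 0.99), whose probe matches the AGUGCAA seed, miR-24 (r = 0.932) and miR-186 (r = 0.923). With median centring miR-23a (r = 0.976) and miR-301b (r = 0.971) again came first, and miR-186 stayed among the first 3 (r = 0.892). These are descriptions over 6 arrays that share 1 slide and 1 reference, and high values arise easily among so many candidates.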

How the data were processed

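The 6 arrays came from 1 slide and 1 scan. The scanner software was Feature Extraction 9.5.1.1 (Agilent), per the file headers. The deposited files give linear spot and background intensity values, per the file headers, and processed intensities that the scanner software had background-corrected and dye-normalised (method: not given in the sources used here). Log10 ratios in the deposited files are processed Cy5 over Cy3, per the file headers, and the authors' value table equals them with the sign turned. Scanner flags are deposited per spot as other values of 0 or 1.

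Background was corrected by normexp (offset 50), and loess was run within each array, with control and outlier spots at no weight (limma 3.58.1, R 4.3.3). Outlier spots were removed and the remaining spots of the 4 per probe averaged on the log2 scale. Tested probes (294 of 334) had a share over 0.5 of spots well above background, in Cy3 or Cy5, on 2 or more arrays. All 6 arrays entered 1 fit (lmFit, eBayes, 3 residual and 2.99 prior degrees of freedom). The WT arrays filled one slide row and the mutant arrays the other, so slide row and WT cannot be told apart. In simulated RQ minus WT arrays (294 probes, 60 changed), the fit recovered 41.8% of changes of 0.5, 87.5% of 1 and 97.5% of 1.5 (log2). The simulated noise was independent and drawn from the fit's own model, without scaling shifts, a background floor or a slide-row effect. These shares therefore check the fit and do not give its power in the real arrays. Cy3 alone means the Cy3 channel after loess and Aquantile. Alternatives were scaling, offset, background, spots, filter, samples and block. The rule named the 6 members, related seeds on the array, the miR-29 family and the 3 closest patterns per family. miR-301b, which had no matched mature sequence, was added for its position. The members and lists were chosen with earlier results of these data known. MicroRNA names follow the array annotation.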

Additional observations from a re-analysis of the deposited data

Results flagged for a closer look

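The changes of the mutants against WT differed from each other, by the direct test of RQ minus MI in limma, for 2 of the 6 members. miR-148b differed by -0.82 (adjusted p = 0.0207), with changes of -0.80 in RQ and 0.02 in MI, and both RQ arrays lay below both MI arrays. miR-152 differed by -0.75 (adjusted p = 0.0305), with changes of -0.31 in RQ and 0.44 in MI, and again both RQ arrays lay below both MI arrays. Such separation says little on its own, as miR-130a and miR-301 showed it too in RQ minus MI without a call. The share of all tested probes that show it was not counted. The miR-152 probe was not well above background on either RQ array and lay below the negative control spots in Cy3, so the size of its difference is not a measured fold. miR-148b lay just above these spots on the RQ arrays. The part of that signal in the difference was not tested.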

How the results depend on the processing

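The call of miR-148b in RQ minus WT and RQ minus MI held in all 11 alternatives other than leaving out arrays (adjusted p at most 0.0352), and that of miR-152 in RQ minus MI in 10 of 11 (adjusted p 0.00249 to 0.0616). miR-130a and miR-130b in RQ minus WT were called in 9 of 11 each (adjusted p up to 0.352 and 0.672), and in MI minus WT in 6 and 4. Most of the 11 keep loess. Those on the filter, the groups fitted and the block leave the change itself as it was. These counts are thus not counts of independent checks. Of the 6 members, 2 were called in MI minus WT with loess. This became 0 with median centring, the processed signals, no background correction or only the 2 groups compared, 1 with Cy3 alone, no filter or the replicate block, and 4 with normexp offset 10, of which miR-152 was higher. In RQ minus WT, 3 became 2 with median centring, 4 with Cy3 alone or the processed signals and 5 with offset 10. Neither miR-130a nor miR-130b was among those called with median centring or Cy3 alone. In RQ minus MI, 2 became 1 without background correction and 3 with Cy3 alone. Deviations of same-numbered arrays from their group means correlated at 0.182 (WT and MI), 0.119 (WT and RQ) and 0.041 (MI and RQ), so the numbers were not taken to pair the arrays. With the replicate block miR-130b lost its call in MI minus WT (adjusted p = 0.0563), miR-148a gained one in RQ minus WT (adjusted p = 0.0281), and no other member's call changed. Leaving out 1 array at a time gave 0 to 3 members called in MI minus WT, 0 to 3 in RQ minus WT and 0 to 2 in RQ minus MI, and 6 to 63, 5 to 60 and 0 to 48 of all microRNAs, against 46, 63 and 32. Of all microRNAs, 27 were called in MI minus WT with only the 2 groups compared, and in RQ minus MI 7 without background correction and 14 with outlier spots kept.

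Signs turned as follows. With median centring, RQ minus WT became 0.21 for miR-130a, 0.20 for miR-130b and 0.0514 for miR-29c, and RQ minus MI became 0.37 for miR-130a, 0.38 for miR-130b, 0.19 for miR-148a, 0.35 for miR-29a and 0.17 for miR-29b. With Cy3 alone, RQ minus MI became 0.15 for miR-130a and 0.46 for miR-130b, and MI minus WT 0.0512 for miR-301b. miR-148a in RQ minus MI was 0.0681 with offset 10 and 0.12 with outlier spots kept. miR-148b in MI minus WT, near 0 with loess, was -0.31 with median centring, -0.29 with Cy3 alone, -0.75 with processed signals, -0.27 with offset 10, -0.0344 with outlier spots kept and -0.009 with spot medians. miR-721 was -0.15 in RQ minus WT with processed signals, and in RQ minus MI -0.23 with processed signals, -0.0047 without background correction and -0.0802 with outlier spots kept. Without 1 array each, values ran from -0.39 to 0.034 for miR-130b, -0.31 to 0.17 for miR-148a, -0.44 to 0.45 for miR-721 and -0.71 to 0.0312 for miR-29b in RQ minus MI, and from -0.22 to 0.0013 for miR-301 and -0.48 to 0.24 for miR-29c in RQ minus WT. Apart from the scalings and arrays named, the cause of these shifts was not tested. Signal near the negative control spots limits miR-148b and miR-152 in RQ.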
